A study of Mus musculus with 10 samples.

Results

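The BCL2 family controls whether a cell releases cytochrome c from its mitochondria and enters apoptosis. The 10 members described here are *Hrk*, *Pmaip1*, *Bbc3*, *Bcl2l11*, *Bmf*, *Bcl2*, *Bcl2l1*, *Mcl1*, *Bax* and *Bak1*, which were found by gene name among the 29268 genes of the deposited table. All 10 passed the filter on low counts. They were chosen on values of the same comparison, so their levels and fold changes between genotypes are a description and carry no p-value.

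In this family the effectors *Bax* and *Bak1* form pores in the outer mitochondrial membrane. The anti-apoptotic proteins *Bcl2*, *Bcl2l1* (Bcl-xL) and *Mcl1* hold the effectors back. The BH3-only proteins, here *Hrk* (Harakiri), *Pmaip1* (Noxa), *Bbc3* (Puma), *Bcl2l11* (Bim) and *Bmf*, bind the anti-apoptotic proteins through a short helix, the BH3 domain, and so release the effectors. In the cycling uterus, cells of the endometrium die and are replaced as estrogen and progesterone rise and fall.

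RNA was sequenced from the uterus of 5 HSD17B1TG and 5 wild-type (WT) female mice of the FVB/N strain at the age of 4 months. HSD17B1TG mice are heterozygous for a cDNA of human HSD17B1, the enzyme that converts estrone to estradiol, driven in all tissues by a chicken beta actin promoter with a CMV enhancer. Females of this line have no estrous cycle, and WT uteri for histology were sampled without regard to cycle phase. The phase of each sequenced WT mouse is not given in the sources used here, so genotype and cycle phase cannot be told apart. The mice are called TG1 to TG5 and WT1 to WT5 here, in the order of their records, and the numbers pair no mice.

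Total counts on genes were 16544864 to 19451715 in HSD17B1TG and 14817228 to 23271988 in WT. Among 16993 genes, edgeR called 2.16% higher and 2.08% lower in HSD17B1TG, which is meant by called up and called down below (quasi-likelihood test, adjusted p under 0.05, at least one genotype with a mean FPKM over 1, and a fold change over 2). By the same rule DESeq2, an alternative test, called 5.45% higher and 3.89% lower among the 16884 genes to which it gave an adjusted p. FPKM are fragments per kilobase of gene at a common sequencing depth, so they allow genes of different length to be compared. Epithelial, stromal and smooth muscle markers were all abundant, so the tissue carried the markers of a uterus. Some mice stood apart. The summed FPKM of 8 smooth muscle markers was 7243 in TG1 and 5721 in WT4, against 404 to 3017 in the other mice. Proliferation genes (8) summed to 279 FPKM in TG3 and 29.3 to 46.3 in the other HSD17B1TG mice, which lay below every WT mouse (54.6 to 154 FPKM). All 8 had negative log2 fold changes (median -0.56), and 0 were called by edgeR or had an unadjusted p under 0.05. DESeq2 called 0 as well, but it gave most of the 8 no adjusted p and so could not call those. Counts of called genes that rest on these mice are also given without TG1 and WT4. The table lists mouse genes, and the human transgene was not analysed here.

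The stretch that the family shares is shown first, because it is the part through which *Hrk* and the other BH3-only proteins act. The coding bases below are those of the GRCm38 reference transcripts (GENCODE M21), not of these mice. Each run holds 36 bases, 5′ to 3′ on the coding strand. Capitals mark the 18 bases of the core, which code for leucine, 3 further residues, glycine or alanine, and aspartate. The pattern occurred 1 time in each of the 9 proteins searched. The *Pmaip1* sequence is not shown.
Hrk: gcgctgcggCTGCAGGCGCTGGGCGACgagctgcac
Bbc3: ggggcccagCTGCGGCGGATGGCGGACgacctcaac
Bcl2l11: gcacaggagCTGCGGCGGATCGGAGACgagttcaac
Bmf: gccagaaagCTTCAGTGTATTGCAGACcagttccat
Mcl1: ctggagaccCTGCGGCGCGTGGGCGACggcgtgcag
Bcl2: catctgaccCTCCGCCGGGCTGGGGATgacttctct
Bcl2l1: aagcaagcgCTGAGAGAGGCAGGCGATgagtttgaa
Bax: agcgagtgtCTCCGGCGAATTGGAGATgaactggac
Bak1: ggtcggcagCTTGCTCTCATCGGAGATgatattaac

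The *Hrk* run lies in exon 1 of 2 at chr5:118169882-118169917 on the plus strand. Those of *Bbc3* (exon 3 of 4, chr7:16313764-16313799) and *Bcl2l11* (exon 3 of 4, chr2:128147141-128147176) are also on the plus strand, and that of *Bmf* (exon 4 of 5, chr2:118545100-118545135) is on the minus strand. The *Mcl1* run lies in exon 1 of 3 at chr3:95659427-95659462 on the plus strand. Those of *Bcl2* (exon 1 of 2, chr1:106712575-106712610), *Bcl2l1* (exon 2 of 3, chr2:152829697-152829732), *Bax* (exon 3 of 6, chr7:45465997-45466032) and *Bak1* (exon 4 of 6, chr17:27022531-27022566) are on the minus strand. All of these positions are coding exon. The fifth residue of the core was glycine in 7 proteins and alanine in 2, *Bbc3* and *Bmf*. Of the 36 pairs of cores, 1 coded for the same 6 residues, *Bcl2l11* with *Bax*, and the *Hrk* core shared 2 or 3 of its 6 residues with each of the others.

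*Hrk* was the member that differed most between the genotypes. *Hrk* lies on chromosome 5 (118164648 to 118189478, plus strand) and overlaps no other annotated gene. Its FPKM was 3.04, 1.91, 4.43, 0.623 and 6.55 in WT1 to WT5. Its FPKM was 0.0661, 0.132, 0.0655, 0.0874 and 0.136 in TG1 to TG5. Every HSD17B1TG mouse lay below every WT mouse, and WT4 was the lowest WT mouse. In counts, *Hrk* had 7 to 13 per HSD17B1TG mouse, above the floor of 3 counts, and 73 to 762 per WT mouse. The log2 fold change of *Hrk* was -5.09 ± 0.62 (SE), which is 34.0-fold lower in HSD17B1TG. *Hrk* was the 1 member of 10 that was called down, where 2.08% of all genes tested were called down, and the 1 member whose groups did not overlap, where 2.65% of all genes tested were lower in HSD17B1TG without overlap. The members were chosen on this comparison, so these are descriptions of the values used. With 1 mouse left out or in another fit, the log2 fold change of *Hrk* lay between -5.35 and -4.70.

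*Hrk* varied more among WT mice than any other member did, with a coefficient of variation of 69.3% in WT, against 54.9% for *Pmaip1*, 42.0% for *Bbc3*, 37.4% for *Bak1* and 35.9% for *Bmf*, and 9.75% (*Bax*) to 19.9% (*Bcl2*) for the other 5. Its highest WT value was 10.5 times its lowest.

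Some markers of 2 cell groups were also called down in HSD17B1TG by edgeR, and the sum of the first group varied widely among the WT mice. The summed FPKM of 6 markers of natural killer and cytotoxic lymphocytes was 59.9, 21.1, 107, 10.1 and 48.1 in WT1 to WT5, and 1.74 to 8.34 in HSD17B1TG. Of these 6 markers 4 were called down and 0 up (against 2.08% and 2.16% of all genes tested), and the median log2 fold change was -3.31. WT4 was the lowest WT mouse for *Hrk* and for this sum, but WT5 was the highest for *Hrk* and WT3 the highest for the sum. *Klrb1c* and *Gzmb*, which mark these cells, were at 0 in some mouse. The summed FPKM of 10 stromal markers was 585 to 2263 in HSD17B1TG and 1967 to 2539 in WT. This sum varied less among the WT mice, and TG1 (2263) lay within the WT range. Of these 10 stromal markers 6 were called down and 0 up (against 2.08% and 2.16% of all genes tested), with a median log2 fold change of -1.73. Endothelial markers, of which 5 of 6 had negative log2 fold changes and edgeR called 0, are given in the closing section. In whole tissue, fewer cells of a type and less RNA per cell cannot be told apart, and the part of these cells in the *Hrk* result was not tested.

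**Figure D1:**
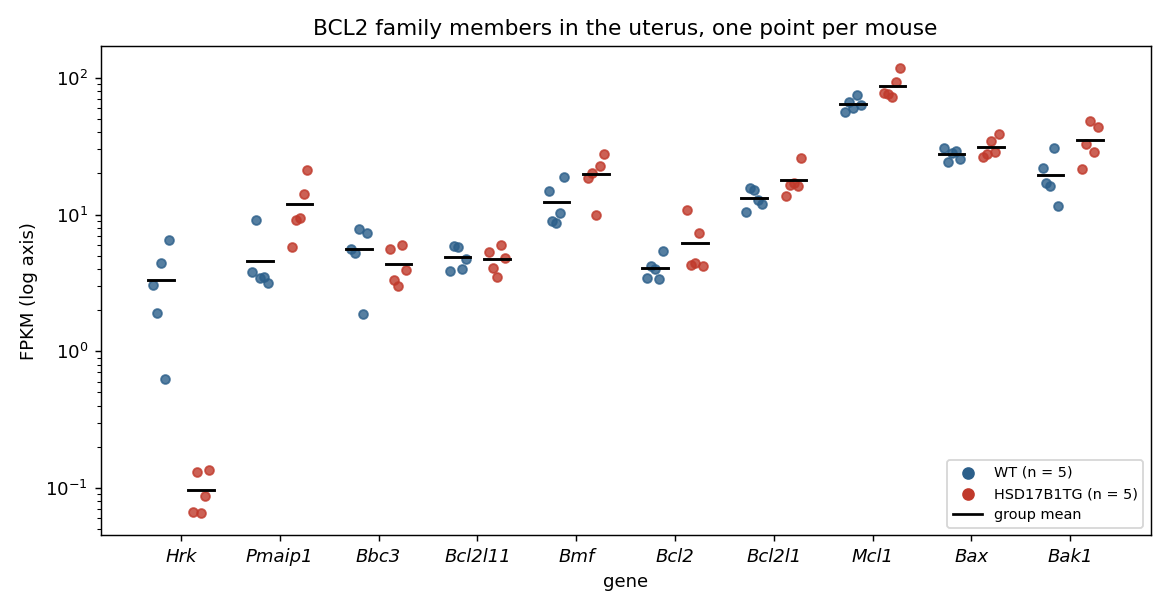
FPKM (log axis) of the 10 members in each mouse, with WT in blue, HSD17B1TG in red (n = 5 each) and black bars at the group means. *Hrk* is the member whose groups do not overlap, with 0.0655 to 0.136 FPKM in HSD17B1TG and 0.623 to 6.55 FPKM in WT, and *Mcl1* has the highest level in both genotypes.

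The promoter of *Hrk* is shown because *Hrk* differed most. It covers chr5:118169514-118169813 on the plus strand (RefSeq, GRCm38.p6), which is 250 bases before and 50 after the transcript start that RefSeq gives. That start lies inside *Hrk* as the counts define it, downstream of the gene start at 118164648.
Hrk promoter: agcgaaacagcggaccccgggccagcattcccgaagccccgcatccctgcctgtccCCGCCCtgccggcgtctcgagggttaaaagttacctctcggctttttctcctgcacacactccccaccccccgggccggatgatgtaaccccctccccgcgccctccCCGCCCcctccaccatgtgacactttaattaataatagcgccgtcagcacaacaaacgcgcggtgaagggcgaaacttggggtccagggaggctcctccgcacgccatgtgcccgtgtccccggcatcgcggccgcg

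Capitals mark 2 GC boxes (GGGCGG, both strands searched), a motif held by 35.7% of the 32851 promoters in the same table. The estrogen response element GGTCANNNTGACC (0.0700% of promoters), its half-site GGTCA (40.5%) and the element GNACANNNTGTNC of progesterone and glucocorticoid receptors (0.475%) were searched on both strands, and these letters are not in this window. The first of these motifs contains the half-site. G and C made up 65.7% of the window, against a median of 52.7% over all promoters.

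*Pmaip1*, on chromosome 18 (66458604 to 66465550, plus strand), was the member with the highest fold change. Its FPKM was 5.76, 9.15, 9.501, 14.2 and 21.3 in TG1 to TG5. In WT1 to WT5 its FPKM was 3.81, 9.09, 3.42, 3.50 and 3.16. Of the HSD17B1TG mice 4 lay above every WT mouse, and the groups overlapped through TG1 and WT2. WT2 stood far above the other WT mice, which lay between 3.16 and 3.81. The log2 fold change of *Pmaip1* was 1.38 ± 0.41 (SE), or 2.60-fold higher in HSD17B1TG, and *Pmaip1* did not pass the call rule in edgeR. It did so in DESeq2, where the log2 fold change was the same to 2 decimals, and in edgeR without TG1. The log2 fold change with 1 mouse left out lay between 1.07 and 1.76.

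With a lower *Hrk* and a higher mean *Pmaip1* in HSD17B1TG, the shares of these genes in the summed BH3-only RNA differed as well. *Hrk* made up 3.07% to 16.1% of the summed FPKM of the 5 BH3-only members in WT, and 0.178% to 0.356% in HSD17B1TG. *Pmaip1* made up 7.75% to 29.2% in WT and 16.3% to 36.9% in HSD17B1TG. *Bmf* was the largest part in every mouse but WT2, where *Pmaip1* was larger. The summed FPKM of the 5 genes was 30.7 ± 7.23 (SD, n = 5) for WT mice and 41.0 ± 12.4 for HSD17B1TG mice, and the ranges overlapped.

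The other 3 BH3-only members differed less. *Bmf*, a sensor bound to the cytoskeleton in healthy cells, had 9.94 to 27.6 FPKM (median 20.3) in HSD17B1TG and 8.70 to 18.9 (median 10.3) in WT, with a log2 fold change of 0.68 ± 0.29 (SE). TG3 was the lowest HSD17B1TG mouse for *Bmf* and lay within the WT range. *Bbc3*, a mediator of p53-induced death, had a log2 fold change of -0.36 ± 0.37, and its FPKM of 3.03 to 5.99 in HSD17B1TG lay within the WT range of 1.87 to 7.82. The lowest WT mouse for *Bbc3* was WT4, as for *Hrk*. *Bcl2l11*, which binds all of the anti-apoptotic members, averaged 4.73 ± 0.964 FPKM (SD, n = 5) over HSD17B1TG mice against 4.87 ± 0.945 over WT mice, and its log2 fold change was -0.05 ± 0.19 (SE).

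The 3 anti-apoptotic members each had a higher mean in HSD17B1TG, and 0 of the 3 passed the call rule in edgeR or in DESeq2. *Mcl1*, a short-lived protein that is made and degraded quickly, had 78.0, 75.8, 72.7, 93.97 and 118 FPKM in TG1 to TG5. In WT1 to WT5 *Mcl1* had 56.6, 67.3, 60.0, 74.6 and 63.1 FPKM. Of the HSD17B1TG mice 4 lay above every WT mouse, and WT4 lay above TG3. The log2 fold change of *Mcl1* was 0.44 ± 0.16 (SE).

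*Bcl2l1* had 13.6 to 26.0 FPKM (median 16.4) in HSD17B1TG and 10.4 to 15.8 (median 12.8) in WT, a log2 fold change of 0.43 ± 0.19 (SE). TG5 stood far above the other HSD17B1TG mice for *Bcl2l1*, at 26.0 FPKM against 13.6 to 17.0. *Bcl2* had 10.8, 4.29, 4.45, 7.40 and 4.22 FPKM in TG1 to TG5 and 3.41 to 5.42 in WT, a log2 fold change of 0.60 ± 0.28 (SE). Only TG1 and TG4 exceeded the WT range for *Bcl2*, and these were also the HSD17B1TG mice with the highest sums of smooth muscle markers, 7243 and 3017 FPKM. The part of smooth muscle in this was not tested. WT4 had the highest smooth muscle sum of the WT mice (5721 FPKM) and the lowest *Bcl2* of all mice (3.41 FPKM). Without TG1 the log2 fold change of *Bcl2* was 0.31. Of 3 annotated genes that overlap *Bcl2*, 2 lie on the same strand and 1, an antisense gene, on the other, so reads there could count for either, and the strand setting of the counts is not given in the sources used here.

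Together the 3 anti-apoptotic members summed to 94.2 to 148 FPKM in HSD17B1TG and 70.4 to 90.7 in WT, although the ranges of the genotypes overlapped for each of the 3 genes alone. *Mcl1* made up 75.9% to 82.2% of this sum in all mice.

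Among the effectors, *Bak1* had 21.4, 32.6, 48.0, 28.6 and 44.0 FPKM in TG1 to TG5. In WT1 to WT5 *Bak1* had 21.95, 17.1, 16.1, 30.7 and 11.5 FPKM. Of the HSD17B1TG mice 3 lay above every WT mouse, and WT4 lay above TG1 and TG4. *Bak1* had a log2 fold change of 0.84 ± 0.28 (SE), under the fold limit of the call rule, and also missed its limit on adjusted p. Without WT4 the log2 fold change was 1.06 and *Bak1* passed the rule. Within each genotype the mice with the lowest *Bak1*, TG1 and WT5, were also the mice with the lowest sum of 10 epithelial markers, 701 FPKM in TG1 and 507 in WT5. In WT the highest *Bak1* and the highest epithelial sum (1697 FPKM) were both in WT4, while in HSD17B1TG they were in TG3 and TG5. The epithelial sum was 701 to 3234 in HSD17B1TG and 507 to 1697 in WT, edgeR called 0 of the 10 markers, 7 had an unadjusted p under 0.05 (as had 26.1% of all genes tested) and DESeq2 called 4, all up (against 5.45% of all genes), and their part in the *Bak1* values was not tested. *Bax*, the other effector, averaged 31.4 ± 5.23 FPKM (SD, n = 5) over HSD17B1TG mice against 27.6 ± 2.69 over WT mice, with overlapping ranges and a log2 fold change of 0.18 ± 0.13 (SE). An annotated gene on the same strand overlaps *Bax* and one on the other strand overlaps *Bak1*, so reads there could count for either.

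**Figure D2:**
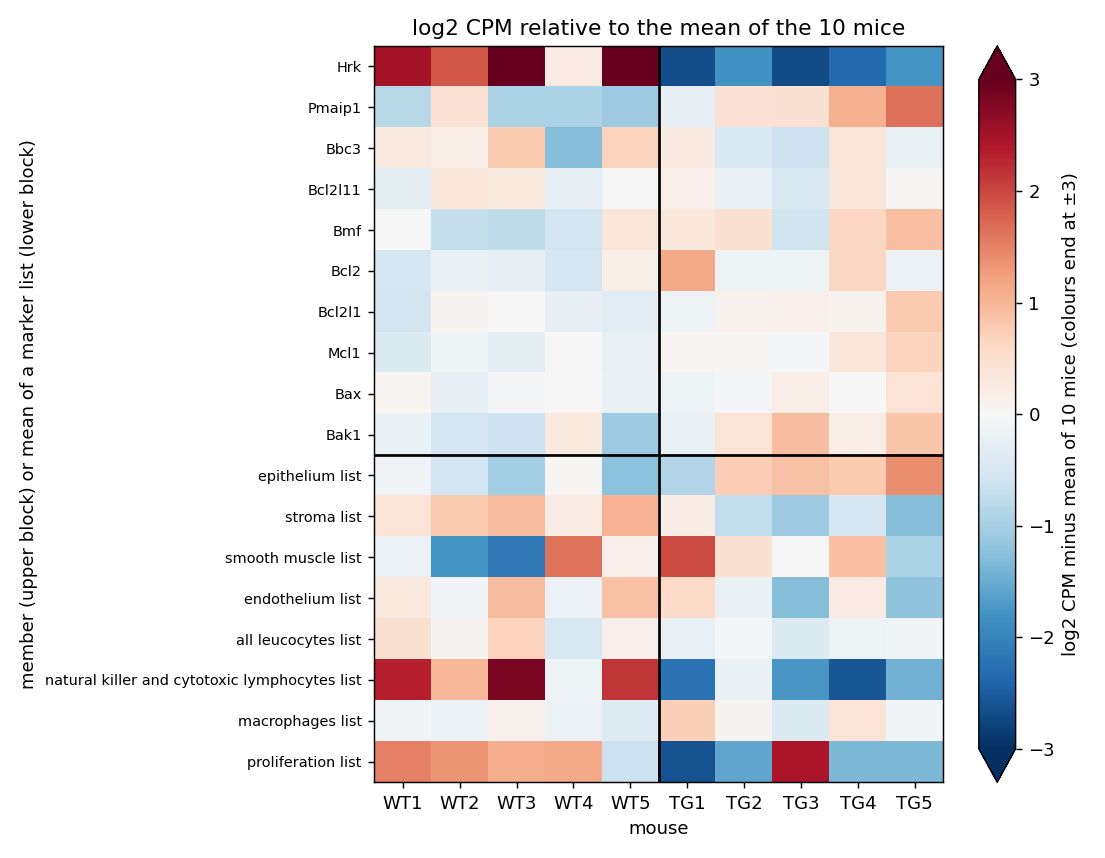
Colours give log2 CPM minus the mean of the 10 mice, with mice in columns (WT left, HSD17B1TG right), the 10 members in the upper rows and means of marker lists in the lower rows. *Hrk* and the natural killer and cytotoxic lymphocyte list are high in WT1, WT2, WT3 and WT5 and nearer to the mean in WT4, *Bcl2* is highest in TG1, and the proliferation list is highest in TG3.

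Within WT the order of mean levels was *Mcl1* (64.3 FPKM), *Bax* (27.6), *Bak1* (19.5), *Bcl2l1* (13.2), *Bmf* (12.3), *Bbc3* (5.58), *Bcl2l11* (4.87), *Pmaip1* (4.595), *Bcl2* (4.09) and *Hrk* (3.31). The ranges of neighbours in this order overlapped except for *Mcl1* with *Bax* and *Bmf* with *Bbc3*. Genes further apart in the order could still overlap, as *Pmaip1* in WT2 (9.09 FPKM) lay above the lowest *Bmf* value in WT (8.70). Within HSD17B1TG the order was *Mcl1* (87.7 FPKM), *Bak1* (34.9), *Bax* (31.4), *Bmf* (19.8), *Bcl2l1* (17.9), *Pmaip1* (12.0), *Bcl2* (6.22), *Bcl2l11* (4.73), *Bbc3* (4.36) and *Hrk* (0.0973). There the breaks were between *Mcl1* and *Bak1* and between *Bbc3* and *Hrk*, so that *Hrk* stood alone at the low end. *Pmaip1* held place 8 in WT and place 6 in HSD17B1TG.

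The ratio of each effector to each anti-apoptotic member was computed within each mouse. The log2 ratio of the FPKM of *Bax* to that of *Bcl2* was 2.43 ± 0.78 (SD, n = 5) over HSD17B1TG mice against 2.77 ± 0.39 over WT mice, and TG1 had the lowest ratio, 1.30. For *Bax* to *Bcl2l1* the log2 ratio was 0.83 ± 0.17 and 1.08 ± 0.35. For *Bax* to *Mcl1* it was -1.47 ± 0.24 and -1.22 ± 0.24. The ratios of *Bax* thus had lower means in HSD17B1TG and those of *Bak1* higher means, with overlapping ranges for all 6 ratios. For *Bak1* the log2 ratio was 2.54 ± 1.05 and 2.19 ± 0.79 to *Bcl2*, 0.94 ± 0.33 and 0.50 ± 0.62 to *Bcl2l1*, and -1.36 ± 0.50 and -1.79 ± 0.48 to *Mcl1*. The log2 ratio of the FPKM of *Mcl1* to that of *Bcl2l1* was 2.31 ± 0.20 and 2.30 ± 0.24.

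The genes whose levels followed *Hrk* most closely over the 10 mice, by Pearson correlation of log2 CPM among 14314 protein-coding genes, were *Fmo1* (r = 0.98), *Tenm3* (0.98), *Prf1* (0.98), *Lyz1* (0.98) and *Lrrn1* (0.97). All points share the genotype, so a gene that differs between genotypes will correlate with *Hrk*, and the highest r of so many genes are high by that choice. For deviations from the group means, r was 0.93, 0.86, 0.88, 0.81 and 0.93 in the same order, for genes chosen on the full r. *Prf1* encodes perforin of cytotoxic lymphocytes and is one of the 6 markers summed above. Its mean FPKM was 0.269 ± 0.1797 (SD, n = 5) for HSD17B1TG mice and 4.89 ± 2.86 for WT mice. *Fmo1*, a flavin-containing monooxygenase, averaged 2.34 ± 0.587 FPKM against 15.4 ± 7.36. *Lyz1* has a near-identical copy, *Lyz2*, so its counts are uncertain.

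For *Pmaip1* the 5 most similar genes were *Cpm* (r = 0.95), *Ctss* (0.95), *Aoc2* (0.95), *Efna3* (0.94) and *Grhl3* (0.93). For deviations from the group means their r was 0.85 (*Grhl3*) to 0.91 (*Cpm*), again for genes chosen on the full r. *Cpm* encodes carboxypeptidase M, *Ctss* the lysosomal protease cathepsin S, and *Grhl3* a transcription factor of epithelia. The mean FPKM of *Ctss* was 77.4 ± 31.2 (SD, n = 5) for HSD17B1TG mice and 29.1 ± 10.1 for WT mice.

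Of 18 further BCL2 relatives named for their role, 17 are listed in the table and 15 were tested. None was called in either direction by edgeR, 3 had an unadjusted p under 0.05 (against 26.1% of all genes tested), and DESeq2 called 3, all up, where it called 5.45% of all genes up. These 3 genes were *Bik*, a BH3-only protein of the endoplasmic reticulum, *Bcl2l14* and *Bcl2l15*. *Bik* had a log2 fold change of 1.08 ± 0.29 (SE, edgeR adjusted p = 0.0528), with 8.12 to 15.1 FPKM in HSD17B1TG and 2.98 to 8.40 in WT. The groups overlapped for *Bik* through TG3 and WT4, and a pseudogene lies on its other strand. *Bcl2l14* had a log2 fold change of 1.54 ± 0.45 (edgeR adjusted p = 0.0628) and *Bcl2l15* one of 2.18 ± 0.80 (edgeR adjusted p = 0.114). The other 12 relatives had edgeR adjusted p-values of 0.342 or higher. They were *Bad*, *Bid*, *Bok*, *Bcl2l2*, *Bcl2l12*, *Bcl2l13*, *Bcl2a1a*, *Bcl2a1b*, *Bnip1*, *Bnip2*, *Bnip3* and *Bnip3l*, with log2 fold changes from -0.36 (*Bok*) to 0.79 (*Bcl2a1b*). The Bcl2a1 genes are near-identical copies, so their counts are uncertain. The median log2 fold change of the 15 relatives was 0.28, against 0.44 for the 10 members and 0.0021 for all genes tested.

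**Figure D3:**
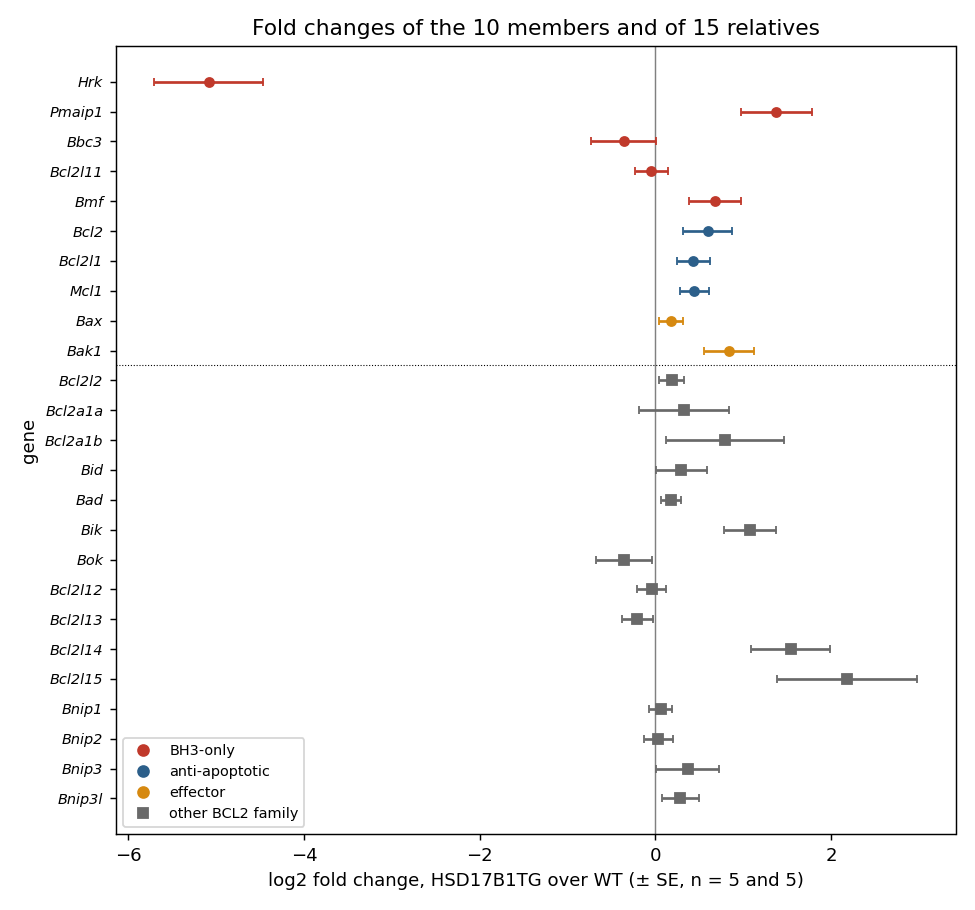
Log2 fold change of HSD17B1TG over WT with its SE (edgeR, n = 5 and 5) for the 10 members, coloured by role, and for 15 relatives as grey squares. *Hrk* at -5.09 lies far to the left of all others, and *Bcl2l15*, at 2.18, has the highest fold change and the widest error bar.

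Downstream of the mitochondria, 1 of 15 genes for the apoptosome, caspases and mitochondrial factors was called up and 0 down. Over all genes tested the shares were 2.16% and 2.08%. *Casp6*, an executioner caspase, rose by 1.18 ± 0.29 on the log2 scale (SE, edgeR adjusted p = 0.0418). Its FPKM was 4.85, 8.39, 5.57, 7.95 and 15.1 in TG1 to TG5 and 2.93 to 4.49 in WT, without overlap, where 4.04% of all genes tested were higher in HSD17B1TG without overlap. *Casp6* passed the rule when TG1, TG3 or WT4 was left out and not when any of the other 7 mice was. By adjusted p alone, which 3.34% of all genes passed upward and 2.81% downward, *Apaf1* and *Aifm1* also passed. *Apaf1*, the scaffold of the apoptosome, was higher, at 6.13 ± 1.64 FPKM (SD, n = 5) against 3.33 ± 0.885 for WT mice. *Aifm1*, a mitochondrial flavoprotein that can move to the nucleus in cell death, fell by 0.75 ± 0.15 on the log2 scale (SE, edgeR adjusted p = 0.0260), with 7.86 to 13.5 FPKM in HSD17B1TG and 15.6 to 19.1 in WT. Both had a fold change under 2, and the choice to name *Apaf1* followed its values. The median log2 fold change of the 15 genes was -0.0048.

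Among 9 inhibitors of apoptosis, 2 were called up and 0 down, against 2.16% and 2.08% of all genes tested. *Naip5* rose by 2.79 ± 0.51 on the log2 scale (SE, edgeR adjusted p = 0.0219), with 7.07 to 37.7 FPKM in HSD17B1TG and 0.732 to 4.23 in WT. *Naip2* rose by 1.86 ± 0.47 (edgeR adjusted p = 0.0445). Naip proteins are best known as sensors of bacterial proteins in inflammasomes, and their genes are near-identical copies among which reads can be split, so both values are uncertain. *Naip5* passed in 6 of 10 leave-one-out fits and *Naip2* in 2, those without TG1 or WT4. *Birc5*, to which DESeq2 gave no adjusted p, was called down only without TG3 (log2 fold change -2.71). The choice to name *Birc5* followed its values. DESeq2 called 4 of the 9, all up, where it called 5.45% of all genes up, and the median log2 fold change of all 9 was 0.79.

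Of 14 death receptors, ligands and adaptors, 0 were called by edgeR, 5 had an unadjusted p under 0.05 (against 26.1% of all genes tested) and DESeq2 called 2 up and 1 down (against 5.45% and 3.89% of all genes). *Fasl*, a death ligand of cytotoxic lymphocytes, had a log2 fold change of -2.997 ± 0.79 (SE, edgeR adjusted p = 0.0508), at 0.133 ± 0.132 FPKM (SD, n = 5) against 1.08 ± 0.665 for WT mice. *Tnf* had a log2 fold change of 2.11 ± 0.66 (edgeR adjusted p = 0.0750). The sums of the cytotoxic lymphocyte markers given with *Hrk* were likewise lower in HSD17B1TG, and their part in the *Fasl* values was not tested. The median log2 fold change of the 14 genes was 0.26.

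Several BH3-only genes are targets of p53 or of stress-response factors. Of 20 genes for p53 and its targets other than the members, 1 was called up and 0 down, against 2.16% and 2.08% of all genes tested. *Trp53inp1*, a p53 target that acts in stress responses, rose by 1.44 ± 0.36 on the log2 scale (SE, edgeR adjusted p = 0.0445). Its FPKM was 17.5 to 43.9 (median 38.9) in HSD17B1TG and 6.41 to 21.7 (median 11.8) in WT, and the groups overlapped through TG3 and WT4. *Trp53inp1* passed the rule in 3 of 10 leave-one-out fits, those without TG1, TG3 or WT4. *Cdkn1a*, the cell cycle inhibitor p21, had a log2 fold change of 1.601 ± 0.52 (edgeR adjusted p = 0.0854). The median log2 fold change of the 20 genes was 0.15.

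Of 14 other regulators of BH3-only genes 13 were tested, 0 were called by edgeR, 3 had an unadjusted p under 0.05 (against 26.1% of all genes tested) and 1, *Atf3*, was called up by DESeq2 (against 5.45% of all genes). *Atf3*, a transcription factor of the stress response, had a log2 fold change of 2.003 ± 0.54 (SE, edgeR adjusted p = 0.0522), with 1.88 to 20.4 FPKM in HSD17B1TG and 1.81 to 4.02 in WT. *Irf1*, an interferon-induced transcription factor, had one of 0.56 ± 0.17 (edgeR adjusted p = 0.0665). The median log2 fold change of the 13 genes was 0.34.

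**Figure D4:**
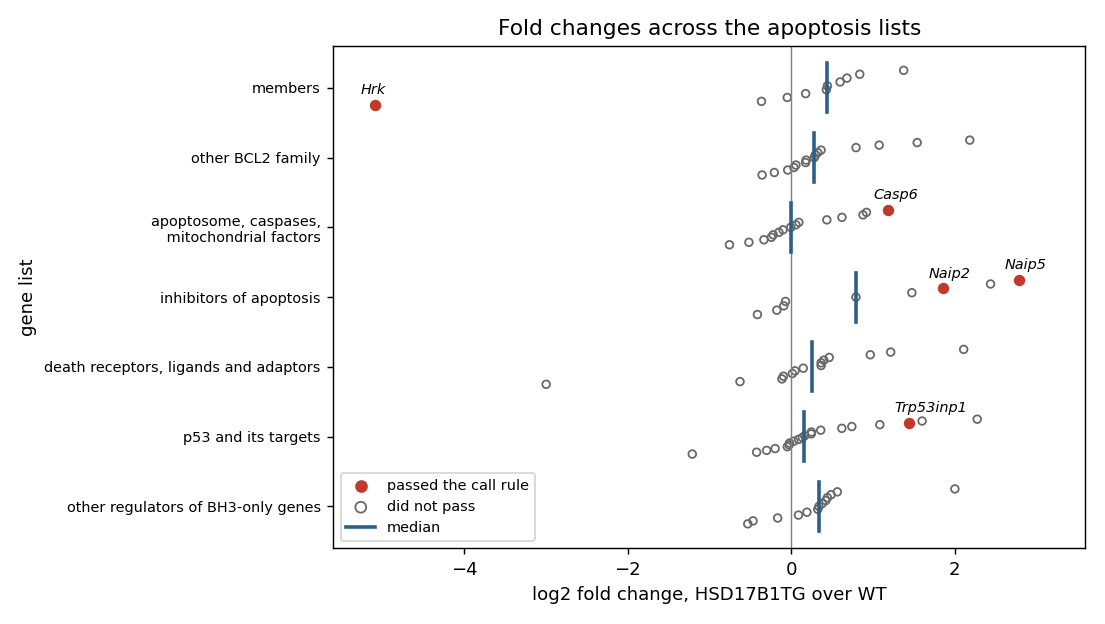
Log2 fold change of HSD17B1TG over WT (edgeR) for each tested gene of the members and of 6 apoptosis lists, with genes that passed the call rule filled and named, and list medians as blue bars. *Hrk* is the only gene of these lists called down, and *Casp6*, *Naip2*, *Naip5* and *Trp53inp1* are called up.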

How the data were processed

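Uterine RNA of 5 HSD17B1TG and 5 WT mice was sequenced with 1 library per mouse. The authors mapped paired-end reads with HISAT2 2.0.5 to the mouse genome with an Ensembl annotation (GRCm38) and deposited raw counts per gene. The deposited signal is the count divided by the DESeq2 size factor of the mouse, and it was used only to recover those size factors. The FPKM deposited by the authors rest on the table's gene lengths and were scaled by the same size factors. How reads were counted per gene (program, strand, multi-mapped reads) is not given in the sources used here. The authors' own fold changes and p-values, and their enrichment tables, were not used.

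The main test of the counts was edgeR 4.0.16 (R 4.3.3, filterByExpr, TMM, quasi-likelihood test, no covariates), with Benjamini-Hochberg adjustment over 16993 genes. Called genes had an adjusted p under 0.05, at least one genotype with a mean FPKM over 1, and more than a 2-fold difference. DESeq2 1.42.0, limma 3.58.1 with voom, DESeq2 size factors in edgeR, no filter, and each mouse left out were the alternatives, and leaving out TG1 and WT4 together was chosen after the data were seen. The fits were tested on simulated counts. No batch was modelled, since the labels name none. The p-values weigh the genotype difference against the spread among these mice within each genotype. A count of 3 was taken as the floor, and such limits cover counting error only.

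The members and the gene lists were chosen with earlier results of these data known. The genes named are all members, all tested BCL2 relatives, of each other list the called genes and the 2 with the smallest p, and the 5 protein-coding genes most correlated with *Hrk* and with *Pmaip1* (log2 CPM, prior count 2). Marker genes named in the closing section were chosen after their values were seen. Coding bases and overlapping genes were read from GENCODE M21, in which BH3 cores were found by translating the longest annotated protein of each gene. Promoters were read from RefSeq, where 9 of the 10 members have an entry. Markers of neutrophils, macrophages, eosinophils, T cells, B and plasma cells, endothelium, oviduct, adipocytes and all leucocytes are summarised in the closing section.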

Additional observations from a re-analysis of the deposited data

Results flagged for a closer look

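Each member was examined in each genotype for a mouse far from the 4 others (Dixon's ratio of gap to range, at its 95% limit), which made 20 groups, and chance flags about 1 group in 20. The *Pmaip1* level of WT2, 9.09 FPKM, was far above the other 4 WT mice at 3.16 to 3.81 FPKM. The *Bcl2l1* level of TG5, 26.0 FPKM, was far above the other 4 HSD17B1TG mice at 13.6 to 17.0 FPKM.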

How the results depend on the processing

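The log2 fold change of *Hrk*, whose direction the choice of members fixed, lay between -5.35 and -4.70 under the alternatives run. The log2 fold changes of all 10 members moved by less than the SD between mice in all 150 values computed. With 1 of 5 mice left out a group mean can hardly move that far, so this limit was easy to meet. The log2 fold change of *Bcl2l11* turned slightly positive without TG3 (0.024) and without WT2 (0.011). The counts of called genes moved more. Leaving out 1 mouse gave 38 to 888 genes called up and 27 to 666 called down (367 and 354 with all mice), with the lowest numbers without TG5 (up also without WT2) and the highest without WT4. In the same fits 1 to 2 members, 0 to 2 BCL2 relatives, 0 to 3 genes of the apoptosome list, 0 to 3 inhibitors of apoptosis, 0 to 1 death receptor genes, 0 to 2 p53 genes and 0 to 2 other regulators were called. The second member was *Pmaip1* without TG1 and *Bak1* without WT4. DESeq2 called 921 genes up and 657 down, 2 members (*Hrk* and *Pmaip1*), 3 relatives, 4 inhibitors, 3 death receptor genes, 3 p53 genes and 1 other regulator. Limma with voom called 189 genes down, 0 of the apoptosome list and 2 p53 genes. Without the filter on low counts, 1 inhibitor was called. By adjusted p alone, 568 genes passed upward and 3 of the apoptosome list. Without TG1 and WT4, an alternative chosen after the data were seen, 1141 genes were called up and 879 down, with 3 members (*Hrk*, *Pmaip1* and *Bak1*), 2 relatives, 3 of the apoptosome list, 4 inhibitors, 3 death receptor genes and 3 p53 genes. The cause of these moves was not tested. No paired analysis was possible because the numbers that end the labels are not explained and the replicate numbers used here follow the order of the records only. With 7 to 13 counts of *Hrk* per HSD17B1TG mouse, the counting error of each value, relative to its level, is larger there than in WT.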

Other observations

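Values of other cell types that the uterine samples could hold were as follows. The summed FPKM of 6 endothelial markers was 25.9 to 104 in HSD17B1TG and 46.1 to 103 in WT. Of these 6 markers 5 had negative log2 fold changes, with a median of -0.94 and 4 at an unadjusted p under 0.05. EdgeR called 0 of them, and DESeq2 called *Emcn* down and *Cldn5* up. The sum of 6 markers of all leucocytes was 48.7 to 77.6 and 42.0 to 81.1. Of these 6 markers 5 had negative log2 fold changes, with a median of -0.68. EdgeR called 1, *Laptm5*, up, and DESeq2 called *Laptm5* up and *Ptprc* and *Cd52* down. The sum of 6 macrophage markers was 152 to 247 and 117 to 184. Of these 6 markers 4 had positive log2 fold changes, with a median of 0.17, and edgeR and DESeq2 both called 1, *Cd68*, up. The sum of 6 neutrophil markers was 3.40 to 15.4 and 0.864 to 3.95. Only 3 neutrophil markers were tested, all with positive log2 fold changes (median 1.72), of which edgeR called 0, 2 had an unadjusted p under 0.05, and DESeq2 called *S100a9* and *Mmp9* up. The sums of 4 T cell markers were 1.80 to 7.72 and 1.73 to 3.05, and those of 5 markers of B and plasma cells 8.33 to 21.4 and 5.29 to 29.8. The sums of 3 oviduct markers were 0.623 to 2.21 and 0.647 to 5.13, and those of 4 adipocyte markers 3.18 to 36.8 and 0.166 to 9.73, with TG4 the highest. In these 4 lists edgeR called 0 markers and 1 of each had an unadjusted p under 0.05, while DESeq2 called *Trac* (T cells), *Cd79b* (B cells) and *Fabp4* (adipocytes) up and 0 of the oviduct list. The sum of 4 eosinophil markers was at most 0.333 FPKM in any mouse, and none of the 4 passed the filter on low counts.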
